A study of Mus musculus with 24 samples.

Results

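The genes followed here are 4 enzyme genes of the 21671 in the deposited expression table, St6galnac4, Pomgnt2, Gcnt4 and Smpdl3b. They were picked from the measured values, for large differences between cells with the WT form and cells with the HEA form of MycER, and Gcnt4 for its lower level in WT at 8 h than at 4 h. Their WT and HEA levels are therefore given as a description, with no test. All 4 passed the filter on low values that left 12268 genes for testing.

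The cells were 3T9 fibroblasts, an immortalised mouse line, grown in medium with fetal bovine serum, and RNA-seq covered 24 libraries in 8 groups of 3. The cells held an empty vector (EV) or 1 of 3 MycER forms, named WT, HEA and RA, and every group was kept in OHT (4-hydroxytamoxifen) for 4 h or 8 h, so the EV cells had the drug as well. In MycER, the hormone-binding part of the oestrogen receptor is fused to Myc, a transcription factor, and OHT activates the fusion. As background, HEA changes residues that touch DNA bases and RA changes residues that touch the DNA backbone, so the forms ask how base-specific and unspecific contacts with DNA matter to transcription by Myc. The labels do not spell out which residues were changed. Libraries from cells without OHT were not analysed here. The labels number the libraries without tying them to separate cultures, and p-values therefore reflect only how far these samples spread, possibly for technical reasons. The cells keep their own Myc gene, and the labels do not say whether a line was 1 clone.

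Reads per kilobase of gene and per M reads (RPKM) were the measured unit, and the totals recovered from them ran from 9.82 to 12.8 M reads per library. Esr1, the gene whose hormone-binding part is in MycER, stood at a mean of 0.277 (4 h) and 0.189 (8 h) RPKM in EV and at 10.2 to 11.9 in the 6 MycER groups. Myc averaged 40.9 and 38.8 RPKM in WT at 4 h and 8 h (SD 10.3 and 9.0), against 57.2 and 58.2 in EV (SD 4.7 and 1.9). In HEA its means were 55.7 and 49.5 (SD 10.9 and 5.4), and in RA 60.3 and 63.1 (SD 4.1 and 4.4). Fibroblast markers summed to 750 to 990 RPKM per library and 10 of 13 had a mean of at least 1, with Thy1 (mean 0.179), Dcn (0.419) and Lum (0.00569) below that. Epithelial, lymphoid and endothelial marker sums were at most 1.37 RPKM. Of 8 macrophage markers 3 had a mean of at least 1, Cd68, Cd14 and Csf1r, and the sum ran from 16.4 to 26.5 RPKM with its lowest group mean in EV at 4 h (19.1) and its highest in WT at 8 h (25.4). The defining marker Ptprc stayed at or below 0.204 RPKM and Emr1 was at 0 in all libraries. Adipocyte markers summed to at most 6.41 RPKM, of which Fabp4 made up most, with Adipoq, Plin1 and Lep near 0. Muscle markers summed to at most 9.96, mostly Acta1, with Myod1 at 0 in all libraries. In bulk RNA a level does not tell fewer expressing cells from less RNA per cell. The 3 libraries farthest from their group means across all genes were replicate 3 of WT at 4 h, replicate 3 of WT at 8 h and replicate 2 of EV at 4 h, and every comparison was also computed without them.

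The 4 enzymes act on sugars and lipids of the cell surface and the secretory pathway. Mucin-type O-glycans start with GalNAc on serine or threonine, are extended and branched in the Golgi, and are often capped with sialic acid. O-mannosyl glycans start in the endoplasmic reticulum, and on dystroglycan they carry the chain by which a cell binds laminin in the matrix around it. Sphingomyelin, a main lipid of the outer plasma membrane, is cut by sphingomyelinases to ceramide, and ceramide is rebuilt into sphingomyelin or glycosphingolipids. St6galnac4 adds a sialic acid to the inner GalNAc of O-glycans that are already sialylated. Pomgnt2 adds N-acetylglucosamine to the O-linked mannose of dystroglycan, Gcnt4 branches mucin-type O-glycans, and Smpdl3b is a membrane-anchored phosphodiesterase related to acid sphingomyelinase.

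Myc with its partner Max is known to bind CACGTG and close variants near gene starts, so the starts of the 4 genes are shown with these letters in capitals. The windows are from RefSeq on build GRCm38.p6, from 250 bases before to 50 after each annotated start. All 4 genes matched, with 1 window each for St6galnac4, Pomgnt2 and Smpdl3b and 2 for Gcnt4. Both strands were searched for CACGTG, then for the variants CACGCG and CATGTG and also CACGAG and CATGCG, and a match on the reverse strand appears as its reverse complement. The first line runs from chr2:32586828-32587077 on the plus strand, the 250 bases before the start. The second is chr9:121996017-121996156 on the minus strand. The third is chr4:132757122-132757147 on the minus strand, the stretch around its match. The fourth is chr13:96924463-96924712 on the plus strand, the 250 bases before the later of the 2 starts, shown as a window with no match.
St6galnac4: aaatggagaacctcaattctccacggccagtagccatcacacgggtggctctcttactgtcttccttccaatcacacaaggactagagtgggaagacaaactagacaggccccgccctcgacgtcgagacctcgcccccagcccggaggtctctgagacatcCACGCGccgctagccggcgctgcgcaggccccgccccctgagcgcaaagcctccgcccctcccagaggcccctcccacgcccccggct
Pomgnt2: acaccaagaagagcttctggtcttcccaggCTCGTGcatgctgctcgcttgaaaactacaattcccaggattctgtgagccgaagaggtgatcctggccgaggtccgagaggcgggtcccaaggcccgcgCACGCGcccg
Smpdl3b: cgagtagttctgcccagaCACGTGgc
Gcnt4: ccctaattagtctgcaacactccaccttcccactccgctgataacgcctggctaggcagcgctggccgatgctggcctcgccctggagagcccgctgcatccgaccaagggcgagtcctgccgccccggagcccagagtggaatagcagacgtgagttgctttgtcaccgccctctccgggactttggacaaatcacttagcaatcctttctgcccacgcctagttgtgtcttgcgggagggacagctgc

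St6galnac4 held CACGCG with its first base at -88 from the start, where -1 is the last base before it. Pomgnt2 held CACGCG at the first transcribed base and CACGAG, printed as its reverse complement CTCGTG, at -100. The only exact CACGTG among the 5 windows was in Smpdl3b, at base 43 of the transcript. Neither window of Gcnt4 held any of the 5. Among 32851 windows of the same length, 7.15% held CACGTG, 9.27% CACGCG, 6.47% CACGAG, 14.2% CATGTG and 6.50% CATGCG, and 35.8% held at least 1 of them. A match is a description of letters and not a measured site, since no binding data were used here.

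St6galnac4 was several times higher in WT cells than in any other group and lay within a narrower band elsewhere. After 4 h it read 44.0, 43.9 and 44.1 RPKM in WT, against 13.8, 14.3 and 13.7 in EV, 13.0, 12.1 and 12.7 in RA, and 9.64, 8.26 and 8.65 in HEA. The 3 WT libraries thus stood far above all others and the 3 HEA libraries below all others, with no overlap between WT, EV and HEA. After 8 h it read 52.7, 47.1 and 47.6 in WT, 12.9, 12.3 and 13.3 in EV, 12.7, 12.6 and 12.5 in RA, and 6.82, 6.58 and 7.53 in HEA. The order was again WT, then EV and RA together, then HEA. The 3 RA values lay inside the range of EV at 8 h and just below it at 4 h. As means ± SD (n = 3, as in all groups below), WT was 44.0 ± 0.121 and 49.1 ± 3.10 RPKM at 4 h and 8 h, and HEA was 8.85 ± 0.710 and 6.98 ± 0.491. The WT mean was 4.97 times the HEA mean at 4 h and 7.04 times at 8 h.

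Pomgnt2 was lower than St6galnac4 and Smpdl3b in every group mean and had the same order of groups. At 4 h it read 21.6, 22.3 and 25.3 RPKM in WT, 7.08, 6.81 and 6.07 in EV, 5.63, 5.81 and 5.60 in RA, and 4.38, 3.88 and 4.12 in HEA. None of these 4 groups overlapped another. At 8 h the WT libraries read 35.4, 23.2 and 24.1, EV 8.24, 7.86 and 8.58, RA 5.89, 6.55 and 7.20, and HEA 3.61, 3.44 and 3.33. Again no group overlapped another, but replicate 1 of WT stood apart from its 2 partners, and the SD of the WT mean of 27.6 was 6.82. The HEA values at 8 h were the lowest of the 24 libraries, on 88 to 97 reads each. WT over HEA came to 5.59 times at 4 h and 7.97 times at 8 h.

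Smpdl3b showed the widest gap of the 4 between WT and HEA at 8 h, though not at 4 h. At 4 h its values were 38.7, 38.2 and 47.5 RPKM in WT, 14.3, 11.7 and 13.7 in EV, 12.7, 13.2 and 11.4 in RA, and 8.85, 9.68 and 8.50 in HEA. EV and RA overlapped, WT was above and HEA below both. At 8 h WT read 54.5, 48.5 and 47.2, EV 12.7, 12.8 and 11.5, RA 9.14, 9.53 and 10.9, and HEA 4.53, 4.05 and 5.58. At this time all 4 groups were apart. The WT mean of 50.1 ± 3.92 was 10.6 times the HEA mean of 4.72 ± 0.782, against 4.60 times at 4 h. The HEA values at 8 h rest on 85 to 110 reads per library, where counting error alone is a CV of 10.3%. Smpdl3b is known from macrophages, and the macrophage marker sums given above were highest in WT at 8 h. Their part in the result was not tested, and Ptprc and Emr1 were at or near 0 in every library.

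Gcnt4 had neither this pattern nor its mirror image: its mean was lower in both WT and HEA than in EV. At 4 h its values were 14.1, 14.3 and 16.0 RPKM in WT, 13.6, 16.1 and 16.3 in HEA, 22.0, 16.2 and 20.2 in EV, and 20.9, 18.7 and 20.9 in RA. The WT values lay within the range of HEA, and the lowest EV library fell below the highest HEA one and just above the highest WT one. At 8 h it read 7.05, 7.93 and 7.43 in WT, 11.7, 10.7 and 10.7 in HEA, 16.9, 19.0 and 18.0 in EV, and 17.9, 17.5 and 17.5 in RA. WT was now below HEA, HEA below EV and RA, and EV and RA overlapped. The group means at 4 h and 8 h were 14.8 ± 1.06 and 7.47 ± 0.441 in WT and 15.3 ± 1.53 and 11.0 ± 0.594 in HEA. The WT mean was 0.969 times the HEA mean at 4 h and 0.678 times at 8 h, so at 8 h Gcnt4 was lower in WT than in HEA and EV where the other 3 were higher. At 4 h the groups overlapped, and leaving out replicate 3 of HEA turned the sign of the small WT over HEA difference.

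**Figure D1:**
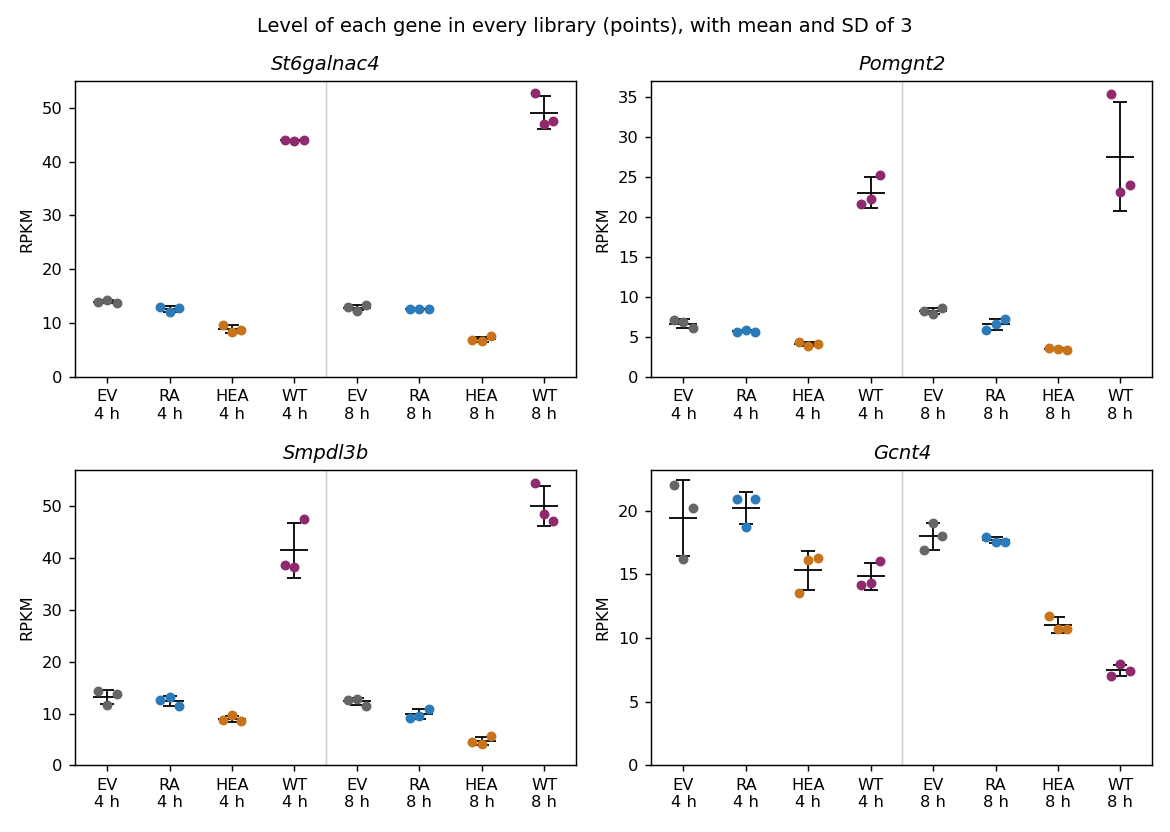
RPKM (vertical axes, from 0) of each gene in the 24 libraries, as points, by form of MycER and time in OHT, with the mean and SD of 3 libraries as bars. St6galnac4, Pomgnt2 and Smpdl3b are highest in WT and lowest in HEA at both times, while Gcnt4 is lowest in WT at 8 h, between 7.05 and 7.93 RPKM.

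Estimates from limma-trend on log2(RPKM + 0.5), which understates the change of genes with low RPKM, put these gaps on a common scale. All differences below are log2 fold changes on that scale. WT over HEA at 4 h was 2.25 ± 0.07 (SE) for St6galnac4, 2.35 ± 0.12 for Pomgnt2, 2.14 ± 0.11 for Smpdl3b and -0.04 ± 0.10 for Gcnt4. Without replicate 3 of HEA at 4 h the Gcnt4 value was 0.0032. At 8 h the differences were 2.73, 2.80, 3.28 and -0.53 with the same errors, since each gene has a single estimate of spread. Counted from the highest of the 12268 tested genes, St6galnac4 ranked 6 at both times, Pomgnt2 5 at both times, and Smpdl3b 10 at 4 h and 1 at 8 h. Their place at the top is how they were chosen and is no result. In this comparison 49.5% of the tested genes passed an adjusted p of 0.05 at 4 h and 48% at 8 h, and the 6073 genes at 4 h were 4004 with only the groups compared in the fit. All 3 WT libraries were above all 3 HEA libraries, as for these 3, in 26.9% of the tested genes at 4 h and 28.3% at 8 h. They were all below, as for Gcnt4 at 8 h, in 27.3%. No such share is given here for WT or HEA against EV or RA, so groups found apart there only describe the values. In WT or HEA against EV, 26.1% to 47.7% of the tested genes passed an adjusted p of 0.05.

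The gap between WT and HEA was made up unequally around EV. WT was above EV by 1.62 for St6galnac4, 1.72 for Pomgnt2 and 1.61 for Smpdl3b at 4 h, and by 1.90, 1.66 and 1.98 at 8 h. HEA was below EV, at -0.63, -0.63 and -0.53 at 4 h and at -0.84, -1.14 and -1.31 at 8 h. The difference of WT from EV was thus the larger side for all 3 at both times. The midpoint of WT and HEA lay above EV, by 0.50, 0.55 and 0.54 at 4 h and by 0.53, 0.26 and 0.33 at 8 h. For Gcnt4, WT over EV was -0.37 at 4 h and -1.21 at 8 h, HEA over EV was -0.33 and -0.68, and the midpoint was -0.35 and -0.95. Both comparisons use the same EV libraries. Without replicate 2 of EV at 4 h, the lowest Gcnt4 library of EV, its midpoint at 4 h was -0.47. Called genes made up 26.1% in WT against EV at 4 h and 35.2% at 8 h, and 43.2% and 47.7% in HEA against EV. The 3196 genes of WT against EV at 4 h were 2041 without replicate 3 of WT and 1176 with only these groups in the fit.

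**Figure D2:**
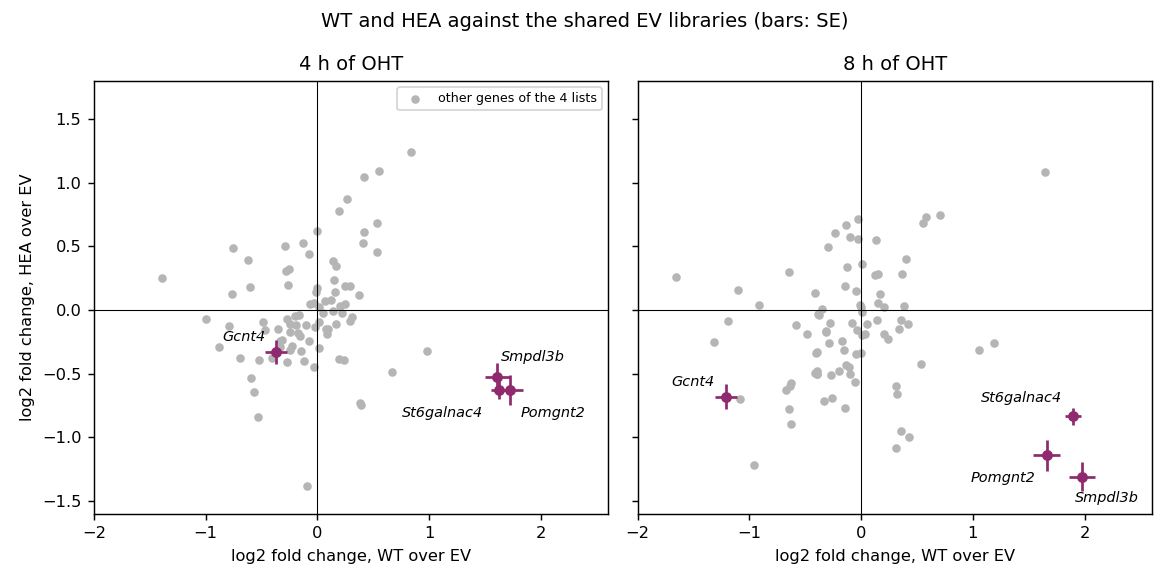
Log2 fold change of WT over EV (horizontal) against HEA over EV (vertical) at 4 h (left) and 8 h (right) for the 4 genes, with SE bars, and for the other tested genes of 4 pathway lists (grey). St6galnac4, Pomgnt2 and Smpdl3b lie at lower right, above EV by 1.61 to 1.98 in WT and below it in HEA, and Gcnt4 lies at lower left; both axes share the EV libraries.

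Between 4 h and 8 h, most of the widening came from HEA for Smpdl3b. HEA at 8 h over 4 h was -0.87 for Smpdl3b, -0.32 for St6galnac4 and -0.22 for Pomgnt2, and WT at 8 h over 4 h was 0.27, 0.16 and 0.23. The WT value of Pomgnt2 depended on replicate 1 at 8 h, and was 0.04 without it. Without the 3 farthest libraries it was 0.38, and that of Smpdl3b was 0.41. Gcnt4 was at -0.94 in WT, the change it was chosen for, and at -0.45 in HEA. Across all tested genes 8.46% were called between the times in WT and 3.33% in HEA, and these shares were not stable. The 1038 genes in WT were 290 without replicate 1 at 8 h, 651 without replicate 3 at 8 h and 451 without replicate 3 at 4 h. The 409 genes in HEA were 105 and 616 without replicate 2 or 3 at 4 h, 151 and 129 without replicate 2 or 3 at 8 h, and 938 without the 3 farthest libraries. With only the groups compared the counts were 0 and 5.

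In the comparisons that hold no WT or HEA library, the differences are independent of how the genes were chosen. None of the 4 passed the test in any of them. Their SE and p still depend on WT and HEA, because the spread of each gene was estimated from all 24 libraries. For Pomgnt2 this includes the WT libraries at 8 h, with a CV of 24.8%. RA was compared with EV to ask what this form does to the genes by itself. At 4 h the RA over EV difference was -0.14 for St6galnac4 (95% interval -0.29 to 0.00, limma adjusted p = 0.255) and -0.21 for Pomgnt2 (-0.46 to 0.04, limma adjusted p = 0.342). It was -0.08 for Smpdl3b (-0.32 to 0.15, limma adjusted p = 0.716) and 0.06 for Gcnt4 (-0.14 to 0.27, limma adjusted p = 0.757). The background was 5.31% of tested genes called at 4 h and 2.78% at 8 h, and 0 of 4 called is near that share. The counts behind these shares moved both ways. Leaving out single libraries gave 158 (without replicate 2 of EV) to 555 in place of 652 genes at 4 h, and 59 (without replicate 1 of RA) to 189 in place of 341 at 8 h. Without the 3 farthest libraries they were 335 and 806, and with only the groups compared 30 and 1343. At 8 h St6galnac4 stood at -0.02 (limma adjusted p = 0.903) and Gcnt4 at -0.02 (limma adjusted p = 0.936). Pomgnt2 was at -0.31 (-0.56 to -0.06, limma adjusted p = 0.173) and Smpdl3b at -0.31 (-0.54 to -0.08, limma adjusted p = 0.143). These last 2 intervals lie below 0 before adjustment, and neither gene passed after it. Groups of RA and EV did not overlap for St6galnac4 and Pomgnt2 at 4 h, where 25.2% of the tested genes did not, and for Pomgnt2 and Smpdl3b at 8 h, where 36.1% did not. In the authors' deposited table, the adjusted p for RA against EV at 8 h was 0.0837 for Pomgnt2 and 0.0743 for Smpdl3b, with log2 fold changes of -0.27 for both.

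The change of the RA effect from 4 h to 8 h, tested as an interaction, was 0.12, -0.10, -0.23 and -0.08 for St6galnac4, Pomgnt2, Smpdl3b and Gcnt4, with limma adjusted p from 0.898 to 0.916. No gene of the 12268 passed that interaction test with limma. An unadjusted p under 0.05 was reached by 256, fewer than expected at that threshold if no gene differed. Gcnt4 in RA against EV at 4 h had the opposite sign, at -0.061, without replicate 2 of EV.

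None of the 4 passed between 4 h and 8 h in EV or in RA. In EV, 8 h over 4 h was -0.12 for St6galnac4, 0.29 for Pomgnt2, -0.09 for Smpdl3b and -0.10 for Gcnt4, with limma adjusted p of 0.489, 0.370, 0.724 and 0.664. Only 0.0245% of the tested genes were called there, 3 genes, against 0 to 4 leaving out single libraries and 0 without the 3 farthest. In RA it was 0.00, 0.18, -0.32 and -0.19, with limma adjusted p of 0.993, 0.681, 0.322 and 0.560, against 0.22% called, 27 genes, which were 0 to 12 leaving out single libraries and 87 without the 3 farthest. Before adjustment, the intervals of Pomgnt2 in EV (0.04 to 0.54) and of Smpdl3b in RA (-0.56 to -0.09) did not include 0. Gcnt4, at -0.94 in WT, was at -0.10 in EV (-0.31 to 0.10) and -0.19 in RA (-0.39 to 0.02), and the difference between these was not tested because WT values chose the gene.

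**Figure D3:**
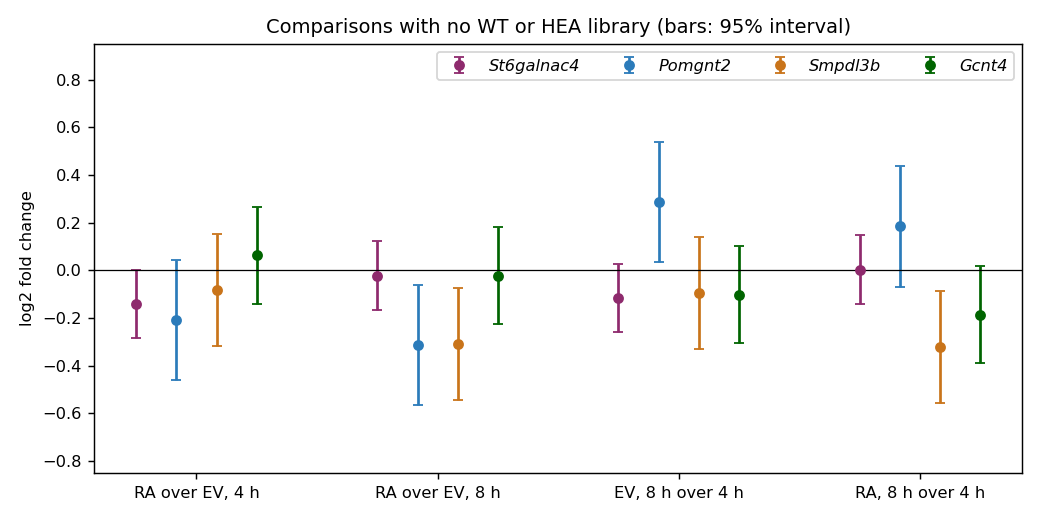
Log2 fold change with 95% interval (vertical axis) of the 4 genes in the comparisons with no WT or HEA library. Of the 16 intervals 4 do not include 0, those of Pomgnt2 and Smpdl3b in RA over EV at 8 h, Pomgnt2 in EV and Smpdl3b in RA over time, and no gene passed after adjustment over all 12268 genes.

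St6galnac4, Pomgnt2 and Smpdl3b followed each other across the 24 libraries. On log2(RPKM + 0.5), Pearson's r was 0.985 between St6galnac4 and Pomgnt2, 0.981 between St6galnac4 and Smpdl3b and 0.966 between Pomgnt2 and Smpdl3b. These are descriptions of points that share groups, and they include WT and HEA, the groups with the highest and lowest means at each time. Values of r without WT and HEA were not computed. Within groups, the r of the deviations from the group means was 0.49, 0.17 and 0.36 for the same pairs. With Gcnt4, r over the 24 libraries was -0.44, -0.45 and -0.37. Among all tested genes with a full name, the nearest to St6galnac4 were Pomgnt2, Glul (0.985) and Rsad1 (0.981), and the nearest to Pomgnt2 were St6galnac4, Glul (0.978) and Sh2b2 (0.975). Glul, which makes glutamine, averaged 38.7 RPKM in WT, 14.5 in EV, 12.0 in RA and 9.80 in HEA at 4 h. Nearest to Smpdl3b were St6galnac4, Slc5a6 (0.972), a transporter of vitamins, and Polr1b (0.967), a subunit of RNA polymerase I. Gcnt4 was most like Ulbp1 (0.956), a ligand of a receptor on natural killer cells, Nipal1 (0.949) and Sgce (0.937). Ulbp1 averaged 18.6 RPKM in WT, 23.2 in HEA, 37.4 in EV and 33.6 in RA at 8 h.

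The wider pathways were followed in 4 lists of genes that were tested and are not among the 4. In the sialylation list, 8 of 17 were higher in WT than in HEA at 8 h, 3 were lower and 6 did not pass, beside 24.6% of all tested genes higher and 23.4% lower. The list's median was 0.26 and that of all tested genes 0.01. At 4 h the counts were 5 higher and 4 lower, beside 26.9% and 22.6% of all tested genes, and 3 were higher with only the groups compared. Gne, which starts sialic acid synthesis, was higher in WT than HEA at 8 h by 1.44 ± 0.13, and St6galnac6 by 1.40 ± 0.12. Cmas, which activates sialic acid for transfer, was lower by 0.80 and reached 39.6 ± 2.3 RPKM in HEA against 22.5 ± 1.6 in WT. St8sia2, which builds polysialic acid, was at -1.92 ± 0.23, and St3gal3 at -0.68. At 8 h 5 genes of the list were lower in place of 3 without the 3 farthest libraries, and 5 were higher in place of 8 without replicate 1 of WT. Against EV at 8 h, 4 were higher and 5 lower in WT, beside 15.2% and 20.1% of all tested genes, and the 5 were 3 without replicate 1 or 3 of EV or replicate 1 or 2 of WT and with median centring or quantile normalisation. In HEA 2 were higher and 8 lower, beside 20.2% and 27.5%.

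The paralogs of St6galnac4 differed in level. St6galnac1, St6galnac3 and St6galnac5 had group means of at most 0.251 RPKM and were not tested. St6galnac2 averaged 7.84 ± 2.0 RPKM in WT, 3.55 ± 1.2 in EV and 2.72 ± 0.61 in HEA at 8 h, and WT over HEA was 1.37 ± 0.29. St6galnac6 averaged 20.2 ± 2.9, 16.1 ± 2.0 and 7.33 ± 0.85 in the same groups. Both of these passed for WT over HEA at 8 h, in the direction of St6galnac4. St6galnac6 is also the neighbour of St6galnac4 on the chromosome, and reads at their shared border cannot be told apart in these values.

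In the mucin-type O-glycan list, 4 of 18 were higher in WT than in HEA at 8 h, 7 lower and 7 did not pass. Its median was -0.06, beside 0.01 for all tested genes, of which 24.6% were higher and 23.4% lower. At 4 h, 1 was higher and 7 lower, beside 26.9% and 22.6% of all tested genes. The 1 was 0 without replicate 3 of WT or 2 of HEA and 2 without replicate 3 of HEA. Galnt2, an enzyme that starts these glycans, was at -0.79 ± 0.07 in WT over HEA at 8 h. Higher in WT than in HEA at 8 h were B4galt5 (0.53), Galnt7 (0.39), C1galt1 (0.51) and Galnt1 (0.22). Of these, C1galt1 and Galnt1 lost the call when single libraries were left out. The 4 were 2 without replicate 1 or 2 of WT or replicate 1 of HEA. The branching paralog Gcnt2 averaged 1.49 ± 0.24 RPKM in WT at 8 h against 4.01 ± 0.13 in EV. It fell in WT from 4 h to 8 h by 0.73 (limma adjusted p = 0.00301, and 0.159 with only the WT libraries in the fit). Gcnt2 was lower at 8 h in the other cells too, at -0.53 in HEA (limma adjusted p = 0.0357, lost when single libraries were left out). In EV and RA it was at -0.31 and did not pass. Its WT over HEA difference at 8 h was -1.10 ± 0.13. Gcnt1 averaged 8.83 ± 1.5 in WT, 9.28 ± 1.2 in HEA and 11.8 ± 0.64 in EV at 8 h, and WT over HEA did not pass. Gcnt3 was below 1 RPKM in every group mean. Gcnt7 went the other way at 8 h, at 3.58 ± 0.42 RPKM in WT and 4.05 ± 0.54 in HEA against 2.29 ± 0.77 in EV. Its HEA over EV difference was 0.73 (limma adjusted p = 0.0122), a call lost when single libraries were left out. Gcnt7 in WT over EV at 8 h did not pass. Against EV at 8 h, 1 gene of the list was higher and 8 lower in WT, beside 15.2% and 20.1% of all tested genes. In HEA 5 were higher and 5 lower, beside 20.2% and 27.5%. The 1 higher in WT was 3 with median centring, with quantile normalisation and without the 3 farthest libraries, and 2 without replicate 2 of EV or 3 of WT. The 5 higher in HEA were 2 without replicate 1 of EV or of HEA, and 3 without replicate 3 of either.

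In the O-mannosyl list, 3 of 19 were higher in WT than in HEA at 8 h, 6 lower and 10 not called. Its median was 0.00, beside 0.01 for all tested genes, of which 24.6% were higher and 23.4% lower. Among the list's higher genes was Pomt1 (1.43 ± 0.10), a partner in the enzyme pair that attaches the first mannose. Pomk (0.43), which phosphorylates that mannose after Pomgnt2 has acted, was higher too. Pomt1 averaged 17.0 ± 0.42 RPKM in WT, 12.5 ± 0.75 in EV and 6.02 ± 0.19 in HEA at 8 h. Gmppb, which makes the mannose donor, was at -0.94 ± 0.11. Another enzyme that acts on O-mannose, Pomgnt1, was at -0.13 and Dag1, dystroglycan itself, at -0.20. Their means at 8 h were between 41.5 and 50.5 and between 65.3 and 76.0 RPKM. Both calls were lost when single libraries were left out. At 4 h the counts were 3 higher and 4 lower, beside 26.9% and 22.6% of all tested genes. With only the groups compared the list's counts were 1 and 2. The 4 were 2 without replicate 2 of HEA and 8 with quantile normalisation.

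In the sphingomyelin and ceramide list, 10 of 33 were higher in WT than in HEA at 8 h, 7 lower and 16 not called. Its median was 0.11, beside 0.01 for all tested genes, of which 24.6% were higher and 23.4% lower. Cers4, a ceramide synthase, was at 1.31 ± 0.13, Kdsr, of the first steps of sphingolipid synthesis, at 0.98 and Smpd3, a neutral sphingomyelinase, at 0.91 ± 0.09. Sgms2, which makes sphingomyelin from ceramide, was at -1.26 ± 0.11, and Ugcg, which makes glucosylceramide, at -0.55 ± 0.09. Sgms2 averaged 9.15 ± 1.3 RPKM in WT, 22.5 ± 0.54 in HEA and 20.1 ± 1.1 in EV at 8 h. The nearest paralog, Smpdl3a, stood below 0.1 RPKM in every group mean and was not tested. Smpd1, the acid sphingomyelinase, was lower than EV in both WT (-0.63) and HEA (-0.60) at 8 h, with no called difference between them. Against EV at 8 h the list had 7 higher and 10 lower in WT, beside 15.2% and 20.1% of all tested genes. The 7 were 4 without replicate 3 of EV or replicate 1 of WT. In HEA it had 4 higher and 15 lower, beside 20.2% and 27.5%. At 4 h the list had 8 higher and 7 lower in WT than HEA, beside 26.9% and 22.6%. The 8 were 5 without replicate 3 of HEA and 4 with only the groups compared.

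The share of all tested genes that passed in RA against EV was 5.31% at 4 h and 2.78% at 8 h. By list, 15 of 17, 15 of 18, 19 of 19 and 32 of 33 genes did not pass at 4 h. Those not passing at 8 h were 16 of 17, 17 of 18, 18 of 19 and 32 of 33. The genes that passed at 4 h were Neu3 (0.45) and St6gal1 (-0.58) of sialylation and Cers4 (-0.48) of ceramide. Of mucin-type O-glycans B4galt4 (0.69), B4galt5 (-0.53) and Galnt3 (-0.86) passed. At 8 h the genes that passed were St6gal1 (-0.46), Galnt3 (-0.67), Dolk (0.36) of the O-mannosyl list and Ugcg (-0.37). Neu3, B4galt4, Galnt3, St6gal1, Dolk, St3gal3, Kdsr, Pomk, Dag1, C1galt1 and Galnt1 were named after their values were seen. Calls lost when single libraries of either group were left out were Neu3, B4galt4 and Cers4 at 4 h and all 4 at 8 h. With only the RA and EV libraries of 4 h in the fit, limma called no gene of the lists in that comparison.

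**Figure D4:**
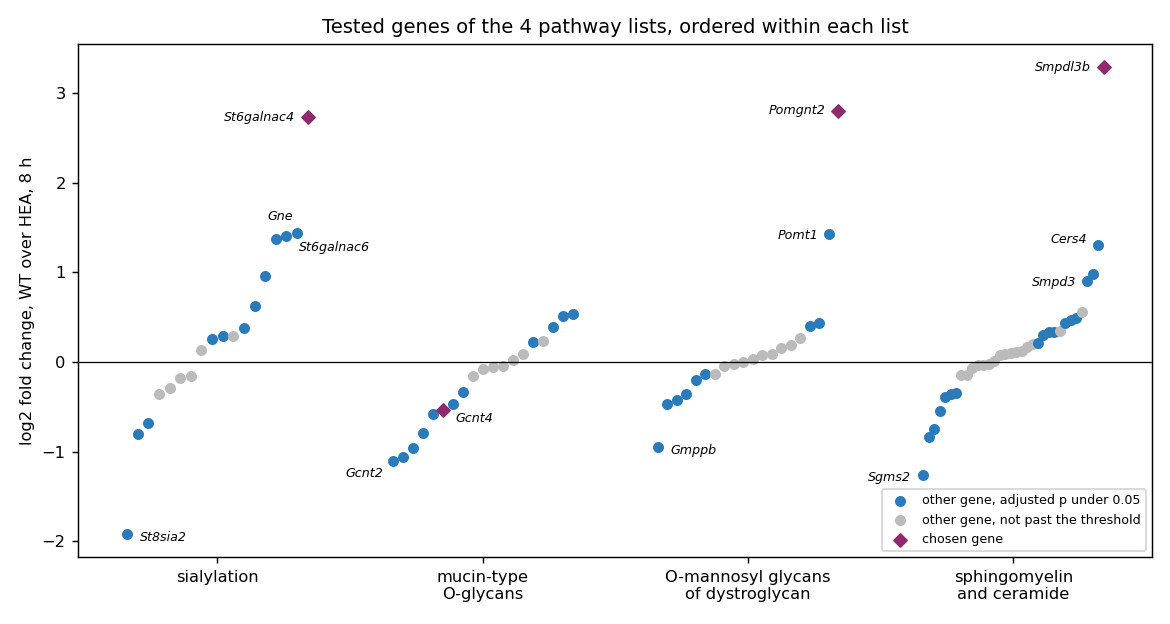
Log2 fold change of WT over HEA at 8 h (vertical axis) for every tested gene of the 4 lists, ordered within each list. Blue points passed an adjusted p of 0.05, grey points did not, and diamonds are the 4 chosen genes, of which St6galnac4, Pomgnt2 and Smpdl3b lie above all other genes of their lists at 2.73, 2.80 and 3.28.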

How the data were processed

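RNA-seq libraries were made with a stranded total RNA kit, per the labels' protocols. Tools listed in the submitters' processing notes, without their roles, are featureCounts 1.4.5-p1, TopHat2 2.0.8, DESeq2, TopHat and SAMtools, and the build is mm9. No source used here states the strand setting, the treatment of duplicates or the annotation. The authors deposited RPKM per gene and library, per the file headers. Their deposited table of comparisons holds adjusted p-values and log2 fold changes, per the file headers.

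The 4 genes and the pathway and marker lists were chosen with earlier results of these data known. The filter kept genes that reached 1 RPKM in 3 or more libraries, and these were fitted with limma-trend (limma 3.58.1, R 4.3.3) on log2(RPKM + 0.5), in 1 fit of 8 group means over 24 libraries with 16 residual degrees of freedom. P-values were adjusted by Benjamini-Hochberg over 12268 genes within a comparison, with 0.05 as the threshold. The fit was also run on simulated reads. These gave every gene and library the same dispersion, unlike the real libraries, so that run cannot vouch for the calls here. Members have no p wherever WT or HEA libraries enter. Whole reads were recovered from the RPKM steps, within 0.01 read for all 21671 genes. Totals ran from 9.82 to 12.8 M (median 10.9). The 4 genes held 85 to 4118 reads per library. In some groups counting error covers only part of the spread, as for Pomgnt2 in WT at 8 h (CV 3.59% from counting, 24.8% seen). In others the spread seen was smaller than counting error alone, as for St6galnac4 in WT at 4 h (1.79% and 0.274%), so such small SDs understate the error. Genes that overlap or share reads cannot be told apart in these values.

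Named genes were the 4, Esr1 and Myc, and the 3 genes most like each of the 4. From each list there were up to 3 other genes with the smallest p in WT against HEA at 8 h. Up to 2 against the majority and paralogs by level were added. Some genes that this rule names are not reported here. Promoter sequences are from RefSeq (GRCm38.p6), and because the files use another build they served only for sequence and neighbours. Alternatives were another pseudocount (0.1 or 1), no filter, median centring, quantile normalisation, a replicate block, only the groups compared and each library left out. Voom on recovered reads, no variance trend and leaving out the 3 farthest libraries were added after seeing the data. Other steps used Python 3.11.15, numpy 2.4.6, pandas 2.3.3 and matplotlib 3.10.9.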

Additional observations from a re-analysis of the deposited data

How the results depend on the processing

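The WT over HEA differences of St6galnac4, Pomgnt2 and Smpdl3b kept their sign under all 16 alternatives run for each at each time. They ranged from 2.16 to 2.31, 2.23 to 2.47 and 2.04 to 2.19 at 4 h, and from 2.65 to 2.82, 2.61 to 2.96 and 3.16 to 3.41 at 8 h. Moves beyond the gene's own residual SD in the fit (0.066 for St6galnac4, 0.14 for Pomgnt2) were St6galnac4 at 4 h with quantile normalisation (2.16), St6galnac4 at 8 h with a pseudocount of 0.1 (2.80) or 1 (2.65) and with voom (2.82), and Pomgnt2 at 8 h with a pseudocount of 1 (2.65), with voom (2.96) and, leaving out single libraries, down to 2.61 and up to 2.91. The midpoint of Gcnt4 at 4 h was -0.50 without the 3 farthest libraries and between -0.47 and -0.26 leaving out single ones, and that of St6galnac4 at 8 h was 0.60 with median centring. No member passed or lost the threshold in any alternative of the RA and EV comparisons, where the lowest adjusted p of limma were 0.0561 (Smpdl3b) and 0.0644 (Pomgnt2), both for RA against EV at 8 h. Values near 0 changed sign. Gcnt4 in WT over HEA at 4 h was -0.12 to 0.0032 leaving out single libraries, the highest without HEA replicate 3. Gcnt4 in RA over EV at 4 h was -0.061 without the 3 farthest libraries and -0.061 to 0.16 leaving out single libraries, the lowest without EV replicate 2, and at 8 h it was -0.063 to 0.018. St6galnac4 in RA over EV at 8 h was -0.051 to 0.0030 leaving out single libraries, and its RA change from 4 h to 8 h was -0.011 with median centring, -0.022 with quantile normalisation and -0.026 to 0.025 leaving out single libraries. The Gcnt4 interaction was 0.039 without the 3 farthest libraries and -0.18 to 0.039 leaving out single ones.

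Counts of called genes over the whole table moved more. With only the groups compared, which leaves fewer samples for the spread, they were 4004 in place of 6073 (WT against HEA, 4 h), 1176 in place of 3196 (WT against EV, 4 h), 30 in place of 652 and 1343 in place of 341 (RA against EV, 4 h and 8 h), and 0, 0, 5 and 0 in place of 3, 1038, 409 and 27 (8 h against 4 h in EV, WT, HEA and RA). Without the 3 farthest libraries they were 335 and 806 for RA against EV, and 0, 938 and 87 for EV, HEA and RA over time. Voom gave 519 for RA against EV at 8 h and 15 for EV over time, which was also 1 with a pseudocount of 1, 5 with median centring, 6 with quantile normalisation and 18 with no variance trend. Quantile normalisation gave 647 for HEA over time. Leaving out single libraries gave 2041 to 3481 for WT against EV at 4 h, 158 to 555 for RA against EV at 4 h, 59 to 189 for RA against EV at 8 h, 0 to 4 for EV over time, 290 to 1118 for WT over time, 105 to 616 for HEA over time and 0 to 12 for RA over time. For these counts the cause was not tested. Median centring moved the split of calls toward higher ones, to 57.3% from 44.7% in WT against EV at 4 h, 55.2% from 43% at 8 h, and 53.6% from 42.3% in HEA against EV at 8 h, and away from them in WT over time, to 38.1% from 52.7%. The median of all genes shifted by at most 0.0755. Same-numbered libraries of different groups showed little shared deviation (84 pairs, median r 0.02 against -0.01 for different numbers, 30 over 0.1). Of 24 libraries 9 were closest to their own number. The check pools all groups, so it cannot exclude a pairing of some of them. With the replicate block, 17 genes in place of 27 were called in RA over time.

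Depth limits the low values most: Pomgnt2 and Smpdl3b in HEA at 8 h rest on 85 to 110 reads per library.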

Other observations

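Genes next to St6galnac4, Pomgnt2 and Smpdl3b on the chromosome, named after their values were seen, did not all move with them. Snrk, beside Pomgnt2, was lower in WT than in HEA, by 0.90 at 4 h and 0.84 at 8 h. Xkr8, beside Smpdl3b, was high in both WT and HEA at 4 h, at 14.7 ± 0.947 and 17.1 ± 0.865 RPKM. In EV and RA it was at 4.32 ± 0.0867 and 4.74 ± 0.659. Rpa2, the other neighbour of Smpdl3b, was higher in WT than in HEA by 0.57 at 4 h and 0.34 at 8 h. St6galnac6, beside St6galnac4, was higher in WT than in HEA, by 1.11 and 1.40. The other neighbours of St6galnac4 and Pomgnt2, Pip5kl1 and Fam198a, were too low to test. At 8 h Fam198a averaged 0.651 ± 0.175 RPKM in WT, 0.238 ± 0.0215 in EV and 0.223 ± 0.158 in HEA. Pip5kl1 averaged 0.769 ± 0.276, 0.434 ± 0.122 and 0.774 ± 0.179 in the same groups.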
